A study of Mus musculus with 16 samples.

Results

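The 38 genes described here carry dietary fat, cholesterol and bile acids through the absorptive cell of the small intestine. They were taken as a list by function from the 49585 genes counted, with earlier results of these data known. They fall into 6 roles: 6 genes of fatty acid uptake and activation, 7 of triglyceride re-esterification, 8 of lipoprotein assembly, 5 of the lipid droplet and lipolysis, 7 of cholesterol transport and esterification, and 5 of bile acid transport and sensing.

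Enterocytes take up fatty acids and monoglycerides released from dietary fat, bind them to small cytosolic proteins, rebuild triglyceride at the endoplasmic reticulum and load it on apolipoprotein B to form chylomicrons, which leave the cell through COPII vesicles. Sterols enter through Npc1l1 and are either esterified for export or pumped back to the lumen by the Abcg5 and Abcg8 pair. Bile acids, which make the lipids soluble, are recovered mainly in the ileum, and the nuclear receptors FXR (Nr1h4) and LXR alpha (Nr1h3) sense bile acids and oxysterols.

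RNA was sequenced from mouse small intestinal organoids, which are epithelial cultures grown in Matrigel from isolated crypts without stroma or lumen contents, and which therefore received no dietary fat or bile from an animal. Organoids were Atg16l1 fl/fl, in which the autophagy gene Atg16l1 carries loxP sites but is intact, or Atg16l1ΔIEC, in which villin-cre removed it from intestinal epithelial cells. Both genotypes, on a C57BL/6 background per the study's methods, were left untreated or received recombinant murine IL-22, a cytokine that acts on the epithelium, at 10 ng/ml for 24 h. Each of the 4 groups held 4 cultures, and the labels placed cultures 1 and 2 on one organoid line and cultures 3 and 4 on another, so that each genotype rests on 2 lines and values below are always given in that order. Whether each line came from a separate animal is not stated. Since the cultures of a line are not independent animals, the p-values measure the spread between these cultures, and the line and the genotype of a line cannot be told apart.

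Gene counts ranged from 2135000 to 5574860 per culture (median 3499277), and the 38 genes took 0.314% to 0.577% of them. Atg16l1 averaged 40.2 ± 7.24 and 45.0 ± 6.33 CPM (counts scaled to the normalised library size; SD, n = 4) in untreated and IL-22-treated fl/fl organoids and 2.67 ± 1.20 and 1.84 ± 2.76 CPM in ΔIEC organoids so the genotypes did not overlap. The second IL-22-treated ΔIEC culture held the most Atg16l1 of its group, 5.96 CPM from 21 counts. Without it 11 members fell and 4 rose with IL-22 in ΔIEC organoids, where 897 of all 12726 tested genes fell and 1274 rose. Against treated fl/fl organoids 7 members were then lower and 1 higher, where 870 of all tested genes were lower and 881 higher. All 12 genes of an enterocyte marker list passed the filter on low counts. Of the markers of other tissues, 3 stromal genes summed to at most 1.19 CPM, 2 endothelial genes to at most 2.72 CPM and 5 immune cell genes to at most 8.71 CPM, while 4 adipocyte genes summed to 13.4 to 42.5 CPM, nearly all Cidec, 4 pancreatic acinar genes to 6.53 to 17.8 CPM, nearly all Cela1, and 3 hepatocyte genes to 0.300 to 10.5 CPM, mostly Ttr in untreated cultures. Cdh5, Cd3e, the adipocyte genes Adipoq and Lep and the pancreatic genes Cpa1 and Amy2b were at 0 in every culture.

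Of the 38 genes, 35 passed the filter on low counts and were tested among 12559 genes with edgeR's quasi-likelihood test, with p-values adjusted by the Benjamini-Hochberg method over all 12559 genes and a threshold of 0.01. The scavenger receptor gene Cd36 held 1, 7, 2 and 11 counts in untreated fl/fl cultures and at most 13 counts in any culture. Fabp6, the ileal bile acid binding protein, held 0 to 7 counts, and Apoc2, an activator of lipoprotein lipase, held 1 count in 1 culture. These 3 genes were not tested, and their changes were not detectable from these counts. Of the Apoc2 exon bases, 79.5% are shared with Gm44805 on the same strand, which held 0 counts. How reads on shared bases were counted is not given, so the count of Apoc2 may not reflect its level.

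Levels between genes were compared as CPM per kilobase of exons in untreated fl/fl organoids. Fabp1, the liver-type fatty acid binding protein, was the highest with 553 ± 287 (SD, n = 4), followed by the acyl-CoA synthetase gene Acsl5 (144 ± 13.6), Apoa1 (125 ± 20.2), Mttp (122 ± 10.6) and Apoa4 (122 ± 20.7). The ranges of Acsl5, Apoa1, Mttp and Apoa4 overlapped. At the other end lay the lipase gene Mgll (1.07 ± 0.231), the sterol exporter gene Abca1 (0.762 ± 0.290) and Cd36 (0.413 ± 0.321), with Fabp6 and Apoc2 at or under 3 counts in every culture. The ileal bile acid importer Slc10a2 was low at 2.32 ± 0.826, as was Slc51b at 4.16 ± 1.68.

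**Figure D1:**
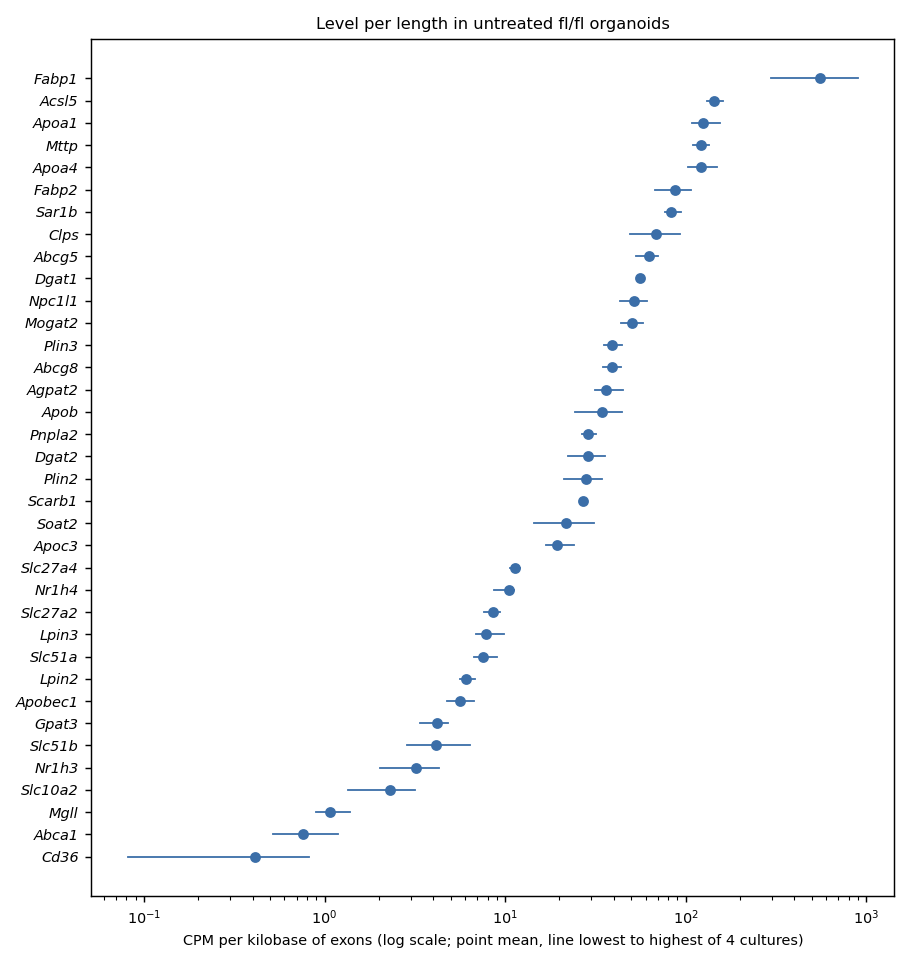
Level of the 36 members with more than 3 counts in at least 1 untreated fl/fl culture, in CPM per kilobase of exons on a log axis, with the mean as a point and the lowest to highest of the 4 cultures as a line (cultures at 0 are left out of the line). Fabp1 stands highest at 553, and the bile acid transporters Slc10a2 and Slc51b lie near the bottom.

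Positions and sequences come first because some members that fell with IL-22 in fl/fl organoids below are also neighbours. On chromosome 9 (GRCm38, GENCODE M21), Apoa1 (46228580 to 46230466, plus strand), Apoc3 (46232933 to 46235636, minus strand) and Apoa4 (46240696 to 46243459, plus strand) lie side by side. On chromosome 17, Abcg5 (84658234 to 84683011, minus strand) and Abcg8 (84676302 to 84700333, plus strand) are read in opposite directions, and 109 bases separate the RefSeq start of Abcg5 at 84683011 from that of Abcg8 at 84683121. The interval between these RefSeq starts is shown. In GENCODE, Abcg8 begins at 84676302, inside Abcg5, so the interval lies within Abcg8 by that annotation. Capitals mark the GATA motif AGATAA, read here on the minus strand as TTATCT, a motif looked for only after the interval had been read. Whether annotated exons cover the interval was not tested.

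Abcg5-Abcg8 interval, chr17:84683012-84683120, GRCm38.p6, plus strand: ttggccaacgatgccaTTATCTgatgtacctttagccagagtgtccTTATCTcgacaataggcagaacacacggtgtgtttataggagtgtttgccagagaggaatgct

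Promoters of 31 of the 38 members, from 250 bases before to 50 after the RefSeq start, were searched on both strands. All promoters were counted by start, but a member counted once if any of its starts held a match. The shares below are therefore not like for like, and their difference was not tested. The GATA motif AGATAA was in 11.2% of all 32851 promoters and in 3 of the 31, which were Abcg5, Abcg8 and Nr1h4. The promoters of Abcg5 and Abcg8 overlap, and their matches are the same bases counted for each gene. The STAT motif TTCNNNGAA, of the kind bound by the factor downstream of IL-22, was in 8.30% of all promoters and in 1 member, Slc51b. The nuclear receptor motif AGGTCA was in 16.3% of all promoters and in 9 of the 31 members (29.0%), while its inverted or direct repeats and the HNF4 motif CAAAGTCCA were in none of the members. A match is a string of letters and was not tested as a binding site. The AGGTCA matches below, in capitals and read on the opposite strand as TGACCT, are those before a RefSeq start of members that passed a test and outside annotated exons. The Nr1h4 match lies before the RefSeq start at 89506658, which is inside the gene as annotated by GENCODE (89454234 to 89533585, minus strand).

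Fabp1, chr6:71199804-71199825, GRCm38.p6, plus strand: acaatcacTGACCTatggccta
Slc51a, chr16:32487924-32487945, GRCm38.p6, minus strand: tctcttctTGACCTatcaggga
Npc1l1, chr11:6230332-6230353, GRCm38.p6, minus strand: taggaagtTGACCTcagaagga
Nr1h4, chr10:89506859-89506880, GRCm38.p6, minus strand: gtggcattTGACCTccagccag

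The 4 genes did not move alike: with IL-22, Fabp1 and Slc51a fell in fl/fl organoids, Nr1h4 rose, and Npc1l1 passed no IL-22 test.

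The first comparison asked what IL-22 changed in each genotype. In fl/fl organoids 11 of the 35 tested members fell and 4 rose, where 10.2% of all tested genes fell and 10.6% rose. In ΔIEC organoids 9 fell and 4 rose, where 7.65% of all tested genes fell and 9.83% rose. The median log2 fold change of the members was -0.24 and -0.22, beside -0.05 and -0.01 for all tested genes. Of the 16 members that passed in at least 1 genotype, 8 fell in both, 4 rose in both and none went opposite ways.

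With the organoid line as a replicate block, 14 members fell and 7 rose in fl/fl organoids, where 15.6% of all tested genes fell and 15.0% rose. With that block 15 fell and 5 rose in ΔIEC organoids, where 11.7% of all tested genes fell and 13.8% rose, so the share that rose was near that of all genes. The block fit assumed a single IL-22 effect per genotype, shared by its lines. Any difference in response between lines was pooled with the spread between cultures, so the block p-values do not treat lines as units. The cultures of a line were also summed, so that lines were the units. That fit did not pair the treated and untreated sums of a line, so differences between lines entered its error. On that basis 4 fell (Slc27a2, Fabp2, Apoc3 and Abcg8) and 1 rose (Apobec1) in fl/fl organoids, where 1.35% of all genes fell and 2.57% rose. In ΔIEC organoids 5 fell (Slc27a2, Apoc3, Scarb1, Abcg8 and Slc51a) and 4 rose (Agpat2, Gpat3, Apobec1 and Nr1h4) on that basis, where 1.80% of all genes fell and 2.78% rose.

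Some markers of epithelial cell types also changed with IL-22, in directions that differed between the lists. Of the 12 enterocyte markers, 7 fell, among them Sis and Lct, and 1 rose (Krt20) with IL-22 in each genotype. Their summed level was 6003 to 6664 CPM in untreated and 2910 to 3349 CPM in treated fl/fl cultures, and 5274 to 6519.7 against 2664 to 3332 CPM in ΔIEC cultures. Of the 6 stem cell markers 3 fell in fl/fl and 5 in ΔIEC organoids, and of the 5 proliferation genes 5 and 2 fell. Of the 6 goblet cell markers 1 fell and 2 rose in fl/fl organoids, and 2 fell and 1 rose in ΔIEC organoids, where their sum was 1192 to 1621 CPM untreated and 595 to 1104 CPM with IL-22. In each genotype 1 of 5 Paneth cell and 1 of 3 tested tuft cell markers rose and 1 of 6 proximal markers fell. None of the 5 enteroendocrine markers passed. The hepatocyte list's Ttr fell in both genotypes (-3.52 ± 0.48 and -3.75 ± 0.44), from 4.63 ± 2.10 and 7.93 ± 1.70 CPM (SD, n = 4) untreated, and Alb was at most 0.510 CPM. In bulk RNA, fewer cells of a type and less RNA per cell cannot be told apart, and the part of these markers in the lipid gene results was not tested.

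**Figure D2:**
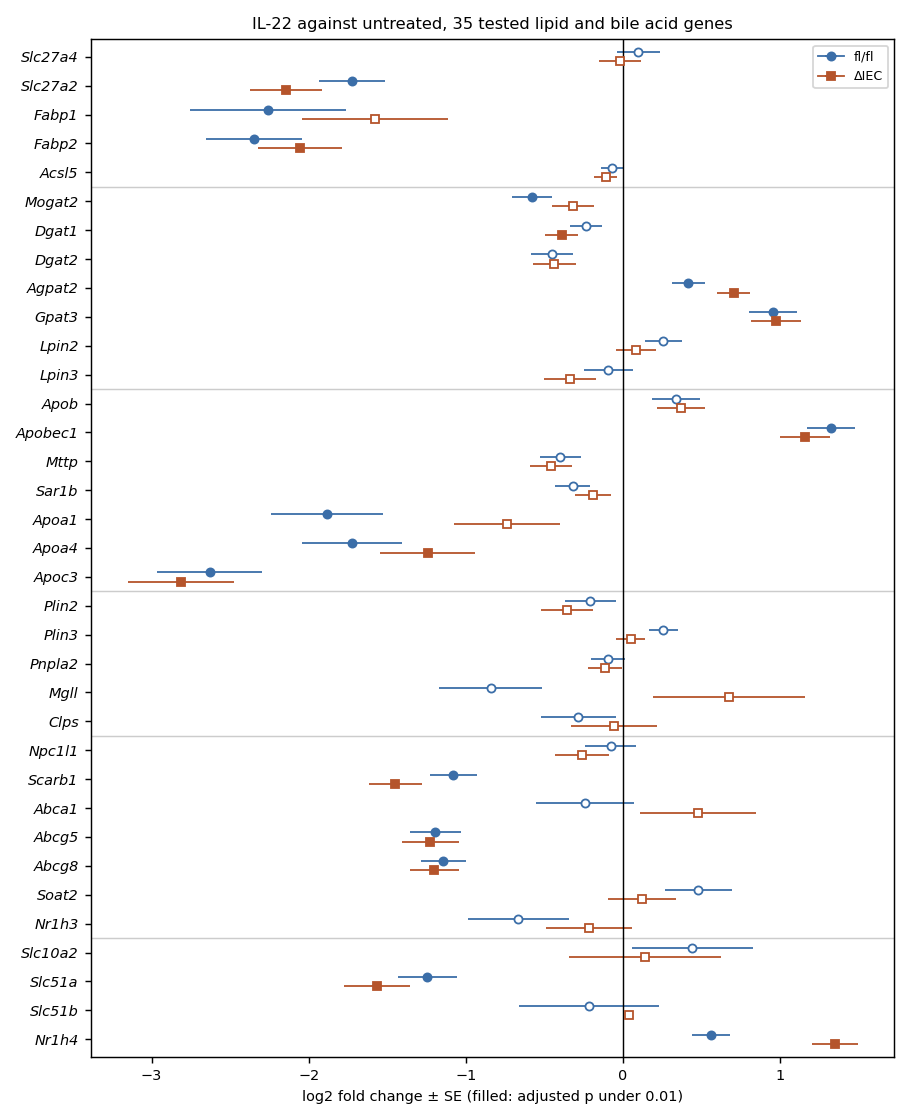
Log2 fold change of IL-22 against untreated with its standard error for the 35 tested members (blue circles fl/fl, orange squares ΔIEC), grouped by role with grey lines and filled where the adjusted p is under 0.01. Apoc3 lies farthest to the left in both genotypes (-2.63 and -2.82), Apobec1 farthest to the right in fl/fl (1.32) and Nr1h4 in ΔIEC organoids (1.35), and the 1 point without a bar (Slc51b in ΔIEC) has an F statistic too near 0 for an error.

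Of the 5 tested genes of fatty acid uptake and activation, 3 fell in fl/fl and 2 in ΔIEC organoids and none rose. Slc27a2, which encodes a fatty acid transport protein with very long chain acyl-CoA synthetase activity, read 35.1, 28.8, 29.9 and 34.2 CPM in untreated fl/fl cultures and 12.3, 8.41, 12.2 and 5.69 CPM with IL-22. In ΔIEC cultures Slc27a2 read 31.1, 24.9, 34.2 and 28.7 CPM untreated and 11.3, 5.11, 6.35 and 4.92 CPM with IL-22. Treated and untreated cultures did not overlap in either genotype, and the gene fell 3.30-fold in fl/fl (log2 fold change -1.72 ± 0.21 SE, edgeR adjusted p = 3.54e-06) and 4.41-fold in ΔIEC organoids (-2.14 ± 0.23, 7.72e-07). Groups of 4 cultures that do not overlap give a two-sided exact permutation p of 0.0286, the smallest such groups can reach.

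Fabp2, the intestinal fatty acid binding protein, read 72.5, 65.1, 103 and 95.8 CPM in untreated and 14.6, 14.96, 18.0 and 17.4 CPM in treated fl/fl cultures. In ΔIEC cultures it read 269, 215, 169 and 137 CPM untreated and 78.6, 61.9, 24.2 and 29.8 CPM with IL-22. The fall was 5.09-fold in fl/fl (-2.35 ± 0.30, edgeR adjusted p = 8.90e-06) and 4.16-fold in ΔIEC organoids (-2.06 ± 0.27, 7.73e-06), without overlap, and every ΔIEC culture lay above every fl/fl culture of the same treatment.

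Fabp1 differed between lines of a genotype as well as with IL-22. It read 186, 165, 497 and 374 CPM in untreated and 40.8, 45.6, 76.0 and 89.0 CPM in treated fl/fl cultures, and it fell 4.78-fold (-2.26 ± 0.50, edgeR adjusted p = 0.00158). In ΔIEC cultures Fabp1 read 824, 739.9, 413 and 375 CPM untreated and 342, 322, 64.7 and 67.1 CPM with IL-22. The treated ΔIEC cultures all lay below the untreated ones, but the test without the line missed the threshold (-1.58 ± 0.47, edgeR adjusted p = 0.0152). The edgeR fit with the line as a block, which assumed an equal fall in both lines, passed the threshold (-1.80, adjusted p = 3.87e-11). The unpaired fit on summed lines did not (-1.57, 0.186). Within lines the log2 difference in Fabp1 was -1.23 and -2.57 for the ΔIEC lines and -2.01 and -2.38 for the fl/fl lines. Without the second fl/fl line the fl/fl call was lost (-2.01, adjusted p = 0.0433).

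The other fatty acid genes did not pass an IL-22 test. Acsl5 averaged 703 ± 66.3 and 670.1 ± 28.7 CPM (SD, n = 4) in untreated and treated fl/fl cultures and 621 ± 28.8 and 576 ± 28.3 CPM in ΔIEC cultures. Slc27a4, a fatty acid transport protein, averaged 49.8 ± 3.53 and 53.1 ± 6.32 CPM in fl/fl and 65.2 ± 11.0 and 64.5 ± 13.4 CPM in ΔIEC cultures. Cd36 held 0 to 3 counts in treated fl/fl, 2 to 13 in untreated ΔIEC and 1 to 8 in treated ΔIEC cultures.

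Of the 7 genes of triglyceride re-esterification, 2 rose and 1 fell in each genotype. Gpat3, which starts glycerolipid synthesis from glycerol-3-phosphate, read 16.9, 14.8, 15.4 and 11.8 CPM in untreated and 25.7, 23.6, 27.6 and 37.2 CPM in treated fl/fl cultures. The ΔIEC cultures read 14.6, 15.7, 12.5 and 14.1 CPM untreated and 32.4, 25.3, 25.7 and 30.4 CPM with IL-22. Gpat3 rose 1.94-fold (0.96 ± 0.16, edgeR adjusted p = 9.82e-05) and 1.97-fold (0.98 ± 0.16, 9.76e-05), without overlap in either genotype. The Gpat3 call was lost without the second line of its genotype (0.63, adjusted p = 0.0250, and 0.88, 0.0173). Exons of Gpat3 share 30.0% of their bases with an antisense gene, and how the counting treated strand is not given in the sources used here.

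Agpat2, which acylates lysophosphatidic acid in the next step of that route, read 95.5, 78.6, 68.5 and 67.4 CPM in untreated and 101, 115, 104 and 94.7 CPM in treated fl/fl cultures, which overlapped. It read 62.0, 64.2, 69.2 and 61.9 CPM in untreated and 92.3, 113, 100.0 and 113 CPM in treated ΔIEC cultures, which did not. Agpat2 rose 1.33-fold in fl/fl (0.42 ± 0.10, edgeR adjusted p = 0.00436) and 1.63-fold in ΔIEC organoids (0.71 ± 0.11, 4.44e-05). The fl/fl call of Agpat2 was lost in 7 of 27 alternative settings, among them the omission of the second fl/fl line (0.32, adjusted p = 0.0906).

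The gene that fell was Mogat2 in fl/fl and Dgat1 in ΔIEC organoids. Mogat2, the monoacylglycerol acyltransferase of the enterocyte, read 106, 103, 80.7 and 80.0 CPM in untreated and 66.5, 66.6, 61.0 and 54.8 CPM in treated fl/fl cultures and fell 1.49-fold (-0.58 ± 0.13, edgeR adjusted p = 0.00153), a call lost without the first fl/fl line (-0.44, 0.0608). In ΔIEC cultures Mogat2 read 74.0, 64.5, 64.7 and 61.1 CPM untreated and 63.6, 61.9, 42.3 and 46.0 CPM with IL-22, which overlapped, and it passed with the line as a block (-0.32 ± 0.13, adjusted p = 0.0803 without and 0.00798 with the block). Dgat1, which adds the last fatty acid of triglyceride, fell in ΔIEC organoids from 136 ± 11.9 to 104 ± 15.5 CPM (SD, n = 4; -0.39 ± 0.10, edgeR adjusted p = 0.00819) and gave -0.24 ± 0.10 in fl/fl (0.0837). That call was lost in 12 of 27 alternative settings, among them the omission of either ΔIEC line.

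Dgat2, the second enzyme of that step, gave -0.45 ± 0.13 and -0.44 ± 0.14 with edgeR adjusted p-values of 0.0136 and 0.0211, and passed in both genotypes with the line as a block (5.26e-05 and 6.27e-05). The phosphatidate phosphatase genes Lpin2 (0.26 ± 0.12 and 0.08 ± 0.13) and Lpin3 (-0.09 ± 0.16 and -0.34 ± 0.17) passed in neither genotype.

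Of the 7 tested genes of lipoprotein assembly, Apoc3 and Apoa4 fell in both genotypes, Apoa1 fell in fl/fl organoids and Apobec1 rose in both. Apoc3, an inhibitor of triglyceride clearance carried on chylomicrons, read 18.4, 18.9, 24.5 and 17.1 CPM in untreated and 2.38, 2.34, 3.00 and 4.79 CPM in treated fl/fl cultures. Its level in ΔIEC cultures was 28.8, 28.8, 17.3 and 17.0 CPM untreated and 5.67, 5.11, 2.42 and 0.579 CPM with IL-22. Apoc3 fell 6.19-fold (-2.63 ± 0.34, edgeR adjusted p = 7.15e-06) and 7.04-fold (-2.82 ± 0.34, 2.96e-06), the largest falls among the tested members in both genotypes, and no culture overlapped.

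Apoa4, a chylomicron apolipoprotein made by enterocytes, read 196, 188, 270.2 and 229 CPM in untreated and 54.2, 61.5, 74.7 and 74.0 CPM in treated fl/fl cultures. ΔIEC cultures held 437, 423, 386 and 291 CPM untreated and 266, 243, 73.1 and 72.3 CPM with IL-22. The fall was 3.31-fold in fl/fl (-1.72 ± 0.32, edgeR adjusted p = 0.000346) and 2.37-fold in ΔIEC organoids (-1.24 ± 0.30, 0.00400), and the treated ΔIEC cultures split by line, with the second line at the fl/fl level. Antisense genes share 34.9% of the Apoa4 exon bases, so its counts are uncertain if strand was not used. Its fl/fl call was lost without either fl/fl line (adjusted p = 0.0112 and 0.0177), and the ΔIEC fall was -2.22 without the first ΔIEC line and -0.79 without the second. The ΔIEC call of Apoa4 was lost in 5 of 27 alternative settings (adjusted p up to 0.112), when an untreated culture of the first ΔIEC line or a treated culture of the second was left out and with summed lines.

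Apoa1, the main protein of high density lipoprotein, is given by culture because of its pattern, chosen after its values were seen. It read 141, 135, 190.4 and 151 CPM in untreated and 26.5, 36.5, 49.4 and 51.5 CPM in treated fl/fl cultures and fell 3.69-fold (-1.88 ± 0.35, edgeR adjusted p = 0.000409), a call lost without the first fl/fl line (-1.73, 0.0154) and with summed lines (-1.86, 0.0396). In ΔIEC cultures it read 157, 149.6, 153 and 113 CPM untreated and 136, 141, 24.2 and 46.3 CPM with IL-22. The log2 difference in Apoa1 was -0.15 in the first ΔIEC line and -1.95 in the second, beside -2.13 and -1.74 in the fl/fl lines. The Apoa1 test over both ΔIEC lines did not pass (-0.74 ± 0.34, edgeR adjusted p = 0.112). With the line as a block it did (-0.84, edgeR adjusted p = 0.000901), in a fit that assumed an equal fall in both lines. Without the first ΔIEC line the fall was -1.91 (edgeR adjusted p = 0.000312).

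Apobec1, the cytidine deaminase that edits Apob mRNA to the short chylomicron form, read 18.1, 14.5, 15.4 and 12.8 CPM in untreated and 37.6, 32.5, 37.5 and 44.9 CPM in treated fl/fl cultures. In ΔIEC cultures Apobec1 read 12.5, 15.99, 14.9 and 17.0 CPM untreated and 27.1, 28.4, 39.9 and 37.6 CPM with IL-22. It rose 2.50-fold (1.32 ± 0.15, edgeR adjusted p = 2.35e-06) and 2.23-fold (1.16 ± 0.16, 1.43e-05), without overlap.

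Its target Apob, the scaffold of the chylomicron, averaged 477 ± 121 and 604 ± 95.9 CPM (SD, n = 4) in untreated and treated fl/fl cultures and 559.6 ± 79.1 and 725 ± 86.0 CPM in ΔIEC cultures. Apob did not pass (0.34 ± 0.15 and 0.37 ± 0.15, edgeR adjusted p = 0.0979 and 0.0756), but did in both genotypes with the line as a block (0.00267 and 0.00216). Mttp, the transfer protein that lipidates Apob, gave -0.40 ± 0.13 and -0.46 ± 0.13 (adjusted p = 0.0255 and 0.0131, and 3.54e-05 and 2.57e-06 with the block). Sar1b, the COPII GTPase of chylomicron export, gave -0.32 ± 0.11 in fl/fl (adjusted p = 0.0346, and 0.00207 with the block) and -0.19 ± 0.11 in ΔIEC organoids (0.224).

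**Figure D3:**
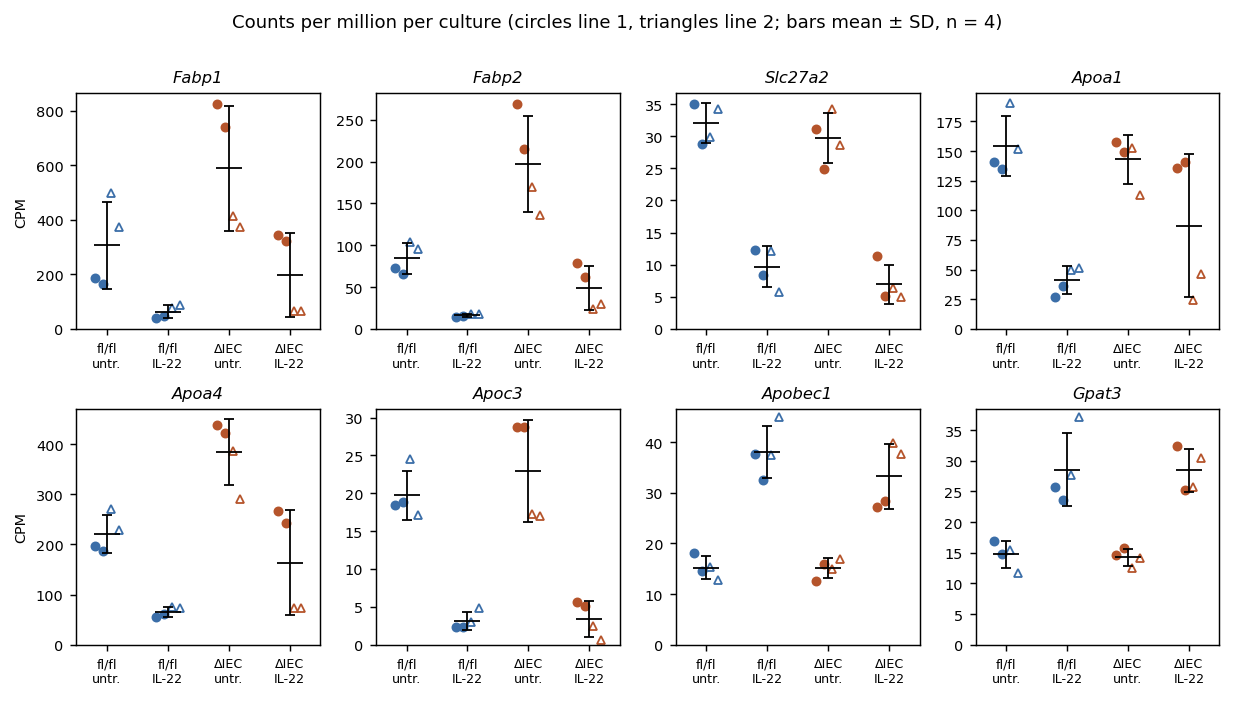
CPM per culture of 8 fatty acid, apolipoprotein and related genes in the 4 groups (circles first line, triangles second line, blue fl/fl, orange ΔIEC; bars mean ± SD, n = 4; all axes start at 0). IL-22-treated ΔIEC cultures of the first line hold 136 and 141 CPM of Apoa1 and 266 and 243 CPM of Apoa4, and those of the second line 24.2 and 46.3 and 73.1 and 72.3 CPM.

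No gene of the lipid droplet and lipolysis group passed an IL-22 test. Mgll, the monoglyceride lipase, had few counts, with 24, 22, 10 and 17 in untreated and 10, 12, 18 and 7 in treated fl/fl cultures, and 1, 5, 5 and 4 in untreated and 2, 6, 9 and 7 in treated ΔIEC cultures. Plin3, a droplet coat protein, read 168, 149, 140.1 and 134 CPM in untreated and 181, 176, 171 and 181 CPM in treated fl/fl cultures, and it passed there with the line as a block (0.26 ± 0.09, edgeR adjusted p = 0.0353 without and 0.00497 with it). In ΔIEC cultures Plin3 read 123, 133, 149 and 137 CPM untreated and 113, 150.0, 149.6 and 144 CPM with IL-22.

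Clps, the cofactor of pancreatic lipase, was measured in these epithelial cultures at 57.0, 48.5, 32.6 and 30.2 CPM in untreated and 49.1, 40.0, 22.9 and 30.6 CPM in treated fl/fl cultures. It read 19.3, 17.7, 30.6 and 26.2 CPM in untreated and 17.4, 17.0, 31.7 and 20.8 CPM in treated ΔIEC cultures, and treated and untreated cultures overlapped in both genotypes. The droplet coat gene Plin2 gave -0.21 ± 0.16 in fl/fl and -0.36 ± 0.16 in ΔIEC organoids, where it passed with the line as a block (edgeR adjusted p = 0.113 without and 0.000272 with it). Pnpla2, the lipase that starts triglyceride breakdown in droplets, gave -0.10 ± 0.11 and -0.11 ± 0.11.

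Of the 7 cholesterol genes the same 3, Abcg5, Abcg8 and Scarb1, fell in each genotype and none rose. Abcg5 read 145, 157, 189.9 and 185 CPM in untreated and 60.2, 65.4, 85.8 and 81.8 CPM in treated fl/fl cultures. Abcg8 read 136, 131, 154 and 164 CPM in untreated and 54.2, 59.6, 78.3 and 70.1 CPM in treated fl/fl cultures. The RefSeq starts of the pair flank the interval shown above, and their proteins work only as a dimer. The genes fell by almost equal amounts, 2.29-fold for Abcg5 (-1.19 ± 0.16, edgeR adjusted p = 1.71e-05) and 2.21-fold for Abcg8 (-1.14 ± 0.14, 6.00e-06).

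In ΔIEC cultures Abcg5 read 84.4, 113, 90.9 and 91.8 CPM untreated and 48.6, 56.2, 30.5 and 28.4 CPM with IL-22. Abcg8 read 89.8, 105, 87.7 and 71.9 CPM untreated and 46.6, 46.6, 35.4 and 27.5 CPM with IL-22. Both fell there too, Abcg5 2.34-fold (-1.23 ± 0.18, edgeR adjusted p = 3.11e-05) and Abcg8 2.30-fold (-1.20 ± 0.16, 7.73e-06), and treated and untreated cultures did not overlap. Exons of Abcg5 and Abcg8 share 82 bases, which is 3.02% and 2.19% of each.

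Scarb1, the receptor for high density lipoprotein, read 239, 229, 219.9 and 236 CPM in untreated and 120.0, 120.1, 109 and 88.7 CPM in treated fl/fl cultures. The ΔIEC cultures read 158, 158, 93.3 and 94.7 CPM untreated and 36.9, 53.1, 52.3 and 43.4 CPM with IL-22. Scarb1 fell 2.11-fold (-1.08 ± 0.15, edgeR adjusted p = 2.07e-05) and 2.73-fold (-1.45 ± 0.17, 1.72e-06).

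Npc1l1, the intestinal sterol importer, read 214, 193, 249 and 274 CPM in untreated and 178, 176, 276 and 249 CPM in treated fl/fl cultures, which overlapped. Its level in ΔIEC cultures was 156, 186, 123 and 123 CPM untreated and 125, 153, 118 and 98.1 CPM with IL-22. Its log2 fold changes were -0.08 ± 0.16 and -0.26 ± 0.17 (edgeR adjusted p = 0.760 and 0.276).

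Soat2, which esterifies cholesterol for chylomicrons, gave 0.48 ± 0.22 in fl/fl (adjusted p = 0.0959, and 0.00133 with the line as a block) and 0.12 ± 0.22 in ΔIEC organoids. Abca1 (-0.24 ± 0.31 and 0.48 ± 0.37) and Nr1h3 (-0.67 ± 0.32 and -0.22 ± 0.28) passed in neither genotype.

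Of the 4 tested bile acid genes, 1 exporter subunit fell and the sensor Nr1h4 rose in each genotype. Slc51a, the alpha subunit of the basolateral bile acid exporter, read 28.9, 23.5, 23.1 and 21.4 CPM in untreated and 10.7, 10.3, 10.5 and 9.29 CPM in treated fl/fl cultures. ΔIEC cultures held 21.9, 20.9, 16.9 and 19.1 CPM untreated and 10.1, 7.95, 3.32 and 6.08 CPM with IL-22. Slc51a fell 2.37-fold (-1.25 ± 0.19, edgeR adjusted p = 4.25e-05) and 2.96-fold (-1.56 ± 0.21, 1.18e-05), without overlap, and 17.7% of its exon bases are shared with Pcyt1a on the other strand. Its partner subunit Slc51b held only 2 to 22 counts per culture and gave -0.22 ± 0.45 in fl/fl and 0.04 in ΔIEC organoids.

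Nr1h4 read 25.7, 25.3, 19.9 and 25.4 CPM in untreated and 33.3, 33.7, 36.8 and 39.6 CPM in treated fl/fl cultures. In ΔIEC cultures it read 10.4, 10.1, 8.44 and 7.48 CPM untreated and 20.3, 27.3, 24.5 and 22.6 CPM with IL-22. The rise was 1.47-fold in fl/fl (0.56 ± 0.12, edgeR adjusted p = 0.00130) and 2.55-fold in ΔIEC organoids (1.35 ± 0.15, 7.92e-07). The range of treated ΔIEC cultures overlapped that of untreated fl/fl cultures. Without the second fl/fl line the fl/fl rise of Nr1h4 was lost (0.39, adjusted p = 0.119).

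Slc10a2 read 11.7, 5.61, 13.1 and 8.03 CPM in untreated and 10.3, 7.48, 17.5 and 14.7 CPM in treated fl/fl cultures. The ΔIEC cultures read 4.24, 3.94, 10.1 and 2.91 CPM untreated and 2.43, 2.27, 11.5 and 5.79 CPM with IL-22. Treated and untreated cultures overlapped, and the tests gave 0.44 ± 0.39 and 0.14 ± 0.48. Fabp6 held 0, 3, 0 and 0 counts in untreated and 0, 0, 1 and 3 in treated fl/fl cultures, and 0, 0, 0 and 2 in untreated and 5, 1, 7 and 3 in treated ΔIEC cultures. Both genes mark the ileum, and of 3 distal small intestine markers all passed the filter at a summed 6.66 to 42.0 CPM over all cultures, beside 530.2 to 1734 CPM for 6 proximal markers.

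**Figure D4:**
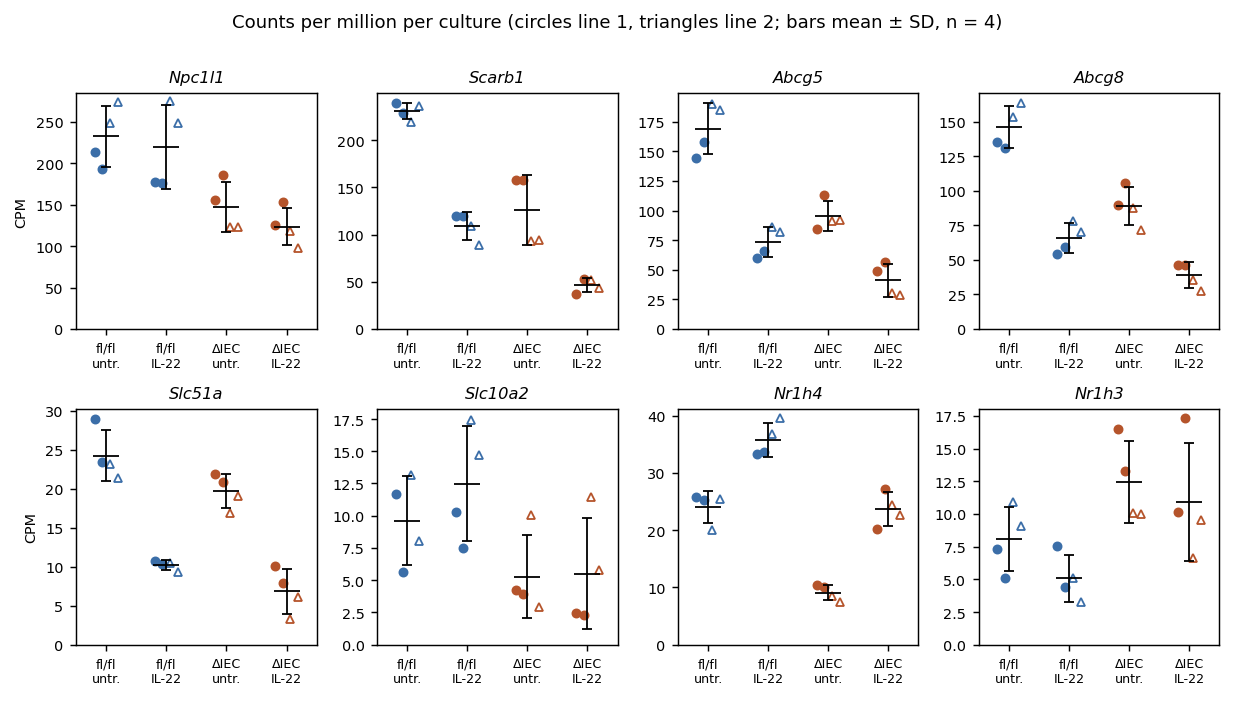
CPM per culture of 8 cholesterol and bile acid genes in the 4 groups (circles first line, triangles second line, blue fl/fl, orange ΔIEC; bars mean ± SD, n = 4; all axes start at 0). Scarb1, Abcg5, Abcg8 and Slc51a are lower with IL-22 in both genotypes without overlap, and untreated ΔIEC cultures hold 7.48 to 10.4 CPM of Nr1h4 against 19.9 to 25.7 CPM in untreated fl/fl cultures.

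The second question was whether the IL-22 effect differed between genotypes. No member passed the interaction test, which 0.0159% of all tested genes did. Without adjustment 3 of the 35 members had an edgeR p under 0.05, as did 912 of all 12559 tested genes. With DESeq2 2 members had an unadjusted p under 0.05, for which all genes were not counted. None of the members passed after adjustment, where 3 of all 12559 genes passed upward and 8 downward. With the line as a block, where 0.446% of all tested genes passed, none of the members did. The smallest adjusted p was that of Nr1h4, whose rise was larger in ΔIEC organoids by 0.79 ± 0.19 on the log2 scale (edgeR adjusted p = 0.230, and 0.0269 with the block). Mgll followed with 1.52 ± 0.58 on few counts (adjusted p = 0.552) and Apoa1 with 1.14 ± 0.49 (0.613).

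Standard errors of the interaction ran from 0.10 to 0.67 on the log2 scale and were highest for Fabp1 and Slc51b. A difference of several standard errors could miss the adjusted threshold, as that of Nr1h4 did. The absence of calls therefore does not show equal responses in the genotypes. The interaction of Apoa1 was -0.03 without the first ΔIEC line and 1.69 (adjusted p = 0.0310) without the second. The Abcg5 and Abcg8 responses differed by -0.03 ± 0.24 and -0.06 ± 0.21, and those of Apob by 0.03 ± 0.22.

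The third comparison set ΔIEC against fl/fl organoids of the same treatment. Untreated, 6 of the 35 members were lower in ΔIEC organoids and 1 was higher, where 5.98% of all tested genes were lower and 3.78% higher. With IL-22, 7 were lower and 3 higher, where 9.84% of all tested genes were lower and 9.91% higher. Of these, 5 were lower in both (Npc1l1, Scarb1, Abcg5, Abcg8 and Nr1h4) and 1, Fabp2, was higher in both. The 2 comparisons share no culture but share their lines.

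All of these calls rest on 2 lines a genotype. With the cultures of each line summed, so that 2 lines stood against 2, none of the members passed untreated or with IL-22, where 0.0216% of all genes were higher and 0.0505% lower untreated and 0.404% higher and 0.952% lower with IL-22. The median log2 fold change of the members was -0.13 untreated and -0.20 with IL-22, beside -0.02 and 0.01 for all tested genes.

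Epithelial markers differed between the genotypes as well. Of the 12 enterocyte markers 1 was lower untreated (Slc5a1) and 1 higher with IL-22 (Anpep) in ΔIEC organoids, and their summed levels overlapped between genotypes in both treatments. Of the 5 Paneth cell markers 3 were lower untreated and 4 with IL-22, with summed levels of 3138 to 4112 CPM in untreated ΔIEC and 5547 to 7892 CPM in untreated fl/fl cultures. Of the 6 goblet cell markers 2 were lower untreated and 4 with IL-22, and of the 5 enteroendocrine markers 2 and 3. Of the 6 stem cell markers 3 were higher untreated, and 3 higher and 1 lower with IL-22, and of the 5 proliferation genes 1 and 4 were higher. The part of these markers in the lipid gene differences was not tested.

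**Figure D5:**
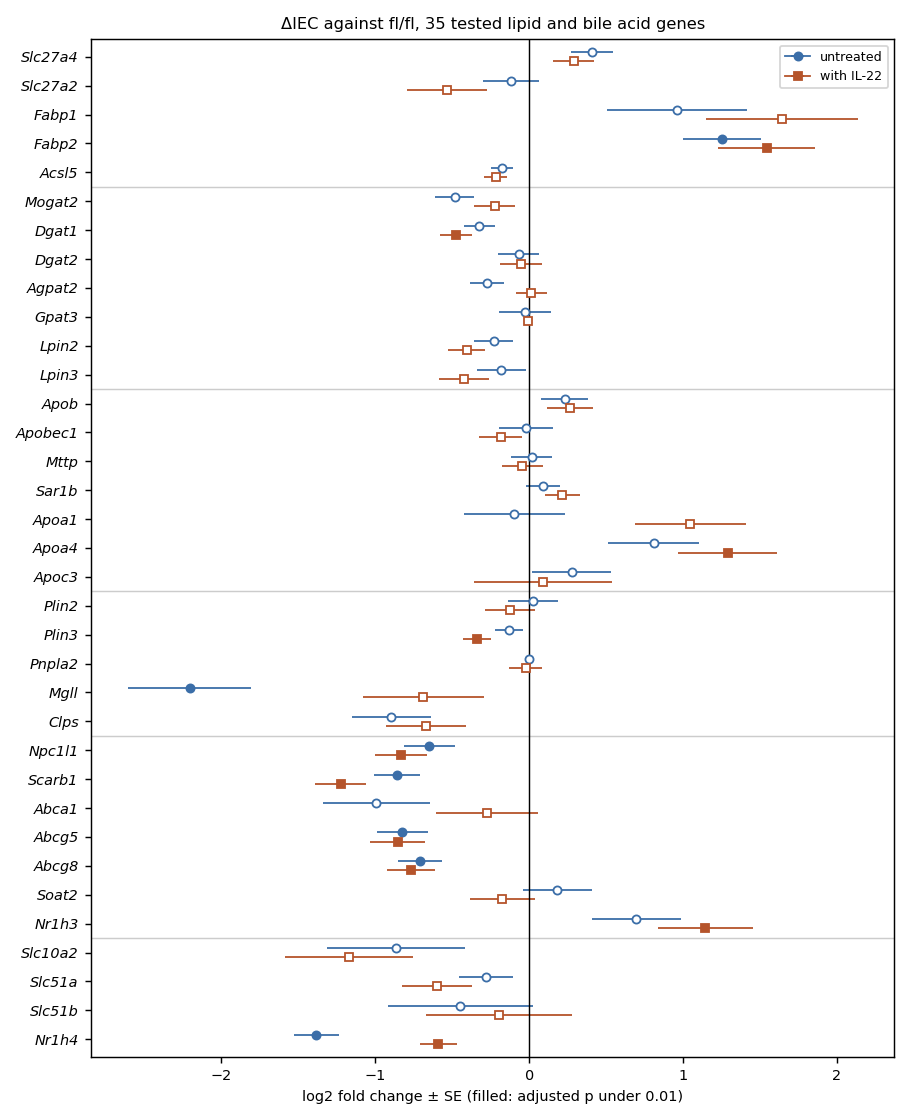
Log2 fold change of ΔIEC against fl/fl organoids with its standard error for the 35 tested members (blue circles untreated, orange squares with IL-22), grouped by role with grey lines and filled where the adjusted p is under 0.01. Npc1l1, Scarb1, Abcg5, Abcg8 and Nr1h4 lie to the left and Fabp2 to the right in both treatments, and points without a visible bar have an F statistic too near 0 for an error.

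Cholesterol transporters made up 4 of the 6 members lower in untreated and 4 of the 7 lower in IL-22-treated ΔIEC organoids. Untreated, Scarb1 was lower by 0.86 ± 0.15 on the log2 scale (1.81-fold, edgeR adjusted p = 0.000663), Abcg5 by 0.82 ± 0.16 (1.77-fold, 0.00171), Abcg8 by 0.71 ± 0.14 (1.63-fold, 0.00181) and Npc1l1 by 0.65 ± 0.17 (1.57-fold, 0.00957, lost in 12 of 26 alternative settings). With IL-22 the falls were 1.23 ± 0.17 for Scarb1 (2.34-fold, edgeR adjusted p = 2.56e-05), 0.86 ± 0.18 for Abcg5 (1.81-fold, 0.00131), 0.77 ± 0.16 for Abcg8 (1.70-fold, 0.00104) and 0.83 ± 0.17 for Npc1l1 (1.78-fold, 0.000905). In each of these comparisons every ΔIEC culture lay below every fl/fl culture.

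The lines moved these calls. The second fl/fl line was the higher one for Npc1l1, Abcg5 and Abcg8, and without it none of the 3 passed in either treatment, although untreated Abcg5 and Abcg8 missed narrowly (edgeR adjusted p = 0.0105 and 0.0101). Without the second ΔIEC line, Npc1l1 and Abcg8 passed in neither treatment, Scarb1 was lost untreated (-0.53, edgeR adjusted p = 0.0132) and Abcg5 was lost with IL-22. Scarb1 with IL-22 passed without any single line (-1.36 to -1.11). Without the first ΔIEC line the untreated Scarb1 difference was -1.30 and the Abcg5 difference with IL-22 was -1.33.

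The remaining cholesterol genes differed less clearly. Nr1h3 averaged 5.08 ± 1.79 CPM in treated fl/fl and 10.9 ± 4.54 CPM in treated ΔIEC cultures (SD, n = 4), which overlapped, and was higher by 1.14 ± 0.31 (edgeR adjusted p = 0.00794), a call that was lost in 12 of 26 alternative settings. Abca1, a known LXR target, gave -0.99 ± 0.35 untreated (0.0489) and -0.27 ± 0.33 with IL-22. Soat2 gave 0.18 ± 0.22 and -0.18 ± 0.21.

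Nr1h4 showed the smallest p among the members in the untreated comparison. It was 2.61-fold lower in untreated ΔIEC organoids (-1.38 ± 0.14, edgeR adjusted p = 4.43e-06) and 1.51-fold lower with IL-22 (-0.59 ± 0.12, 0.00103), with no overlap in either. The untreated difference passed without any single line (-1.61 to -1.22), whereas with IL-22 it was lost without the second fl/fl line (-0.49, edgeR adjusted p = 0.0196). Slc51a (-0.28 ± 0.18 and -0.60 ± 0.23), Slc51b (-0.45 ± 0.47 and -0.20 ± 0.47) and Slc10a2 (-0.87 ± 0.45 and -1.17 ± 0.42) did not pass. The 3 distal small intestine markers summed to 26.0 to 42.0 CPM in untreated fl/fl and 11.3 to 21.2 CPM in untreated ΔIEC cultures, and to 20.8 to 38.7 and 6.66 to 15.4 CPM with IL-22, without overlap. Of them only Fgf15 passed, untreated, and the part of this list in the bile acid gene differences was not tested.

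Fabp2 was 2.38-fold higher in untreated ΔIEC organoids (1.25 ± 0.25, edgeR adjusted p = 0.00196) and 2.91-fold higher with IL-22 (1.54 ± 0.32, 0.00113), and was lost in both without the first fl/fl line (edgeR adjusted p = 0.0451 and 0.0148) and untreated also without the first untreated ΔIEC culture. Without the first ΔIEC line the Fabp2 difference with IL-22 was 0.71 (adjusted p = 0.0298). Its family member Fabp1 gave 0.96 ± 0.46 untreated (0.143) and 1.64 ± 0.49 with IL-22 (0.0154). Without the first ΔIEC line the Fabp1 difference with IL-22 was 0.05 and without the second it was 2.36. Slc27a4 gave 0.41 ± 0.14 (edgeR adjusted p = 0.0399) and 0.29 ± 0.13, Slc27a2 -0.12 ± 0.18 and -0.54 ± 0.26, and Acsl5 -0.18 ± 0.07 and -0.22 ± 0.07, none past the threshold.

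In lipoprotein assembly only Apoa4 passed, with IL-22 (2.44-fold higher, 1.29 ± 0.32, edgeR adjusted p = 0.00450), although treated cultures of the genotypes overlapped. The Apoa4 call was lost in 9 of 26 alternative settings, and without the first ΔIEC line the difference was 0.12 (adjusted p = 0.662). Apoa1 gave 1.05 ± 0.36 with IL-22 (0.0318), Apoc3 0.28 ± 0.26 and 0.09 ± 0.45, Apob 0.23 ± 0.15 and 0.26 ± 0.15, and Apobec1, Mttp and Sar1b between -0.19 and 0.22 in the 2 treatments.

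Among the re-esterification and droplet genes, Dgat1 was lower with IL-22 (-0.48 ± 0.10, edgeR adjusted p = 0.00168, lost without the second line of either genotype) and gave -0.32 ± 0.10 untreated (0.0301). Plin3 was lower with IL-22 (-0.34 ± 0.09, 0.00746), a call lost in 13 of 26 alternative settings. Mgll was 4.62-fold lower in untreated ΔIEC organoids (-2.21 ± 0.40, edgeR adjusted p = 0.000855) on the counts given above, a call lost without the first fl/fl line (-1.94, 0.0230) or the first ΔIEC line (-1.56, 0.0288), and gave -0.69 ± 0.39 with IL-22 (0.188). Clps gave -0.90 ± 0.25 untreated (0.0174) and Mogat2 -0.48 ± 0.13 (0.0109).

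A wider list of 74 genes with the same 6 roles gave the surrounding pathway, and 48 of them passed the filter. With IL-22, 8 of the 48 fell and 5 rose in fl/fl organoids, beside 10.2% and 10.6% of all tested genes, and 9 fell and 5 rose in ΔIEC organoids, beside 7.65% and 9.83%. The rising shares were near those of all genes. In ΔIEC organoids 9 were lower and 1 higher untreated, beside 5.98% and 3.78% of all tested genes, and 15 lower and 6 higher with IL-22, beside 9.84% and 9.91%. None passed the interaction test.

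Of that list, 6 genes passed with a change of at least 1 on the log2 scale. The vitamin D receptor Vdr, which also binds secondary bile acids, averaged 347 ± 10.3 CPM in untreated and 208 ± 8.76 CPM in treated fl/fl cultures, and 317 ± 11.3 and 155 ± 2.18 CPM in ΔIEC cultures (SD, n = 4). It fell 2.04-fold in ΔIEC organoids (-1.03 ± 0.06, edgeR adjusted p = 1.76e-10). Abcc2, an apical exporter of conjugates, fell 2.08-fold there (-1.06 ± 0.13, 3.62e-06), and both genes fell in fl/fl organoids too (-0.74 and -0.92).

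Agpat4, an acyltransferase related to Agpat2, rose 3.56-fold in fl/fl (1.83 ± 0.34, edgeR adjusted p = 0.000330) and 4.12-fold in ΔIEC organoids (2.04 ± 0.29, 1.99e-05). The lipase Pnliprp2 fell in both genotypes (-1.06 ± 0.30 and -2.14 ± 0.47, adjusted p = 0.00995 and 0.00163) and was lower in ΔIEC organoids in both treatments, from 108 ± 46.6 to 28.8 ± 8.48 CPM untreated and from 52.6 ± 12.3 to 6.05 ± 5.83 CPM with IL-22. Fabp5 was 2.32-fold higher in untreated ΔIEC organoids (1.22 ± 0.18, edgeR adjusted p = 0.000139) and fell there with IL-22 (-1.01 ± 0.18, 0.000216). Fgf15, the FXR target hormone of the ileum, held 3 to 42 counts in untreated fl/fl and 1 to 3 in untreated ΔIEC cultures (edgeR adjusted p = 0.00273), and no fold is given for counts this low.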

How the data were processed

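The authors trimmed reads with cutadapt, aligned them with TopHat2 to mm10 (GRCm38) and counted reads per gene with HTSeq, per the labels and the study's methods; they deposited raw counts for 49585 genes in 16 cultures. The labels name a TruSeq v2 kit and the methods a stranded total RNA kit, and the strand setting and annotation release are not given in the sources used here. Reads on genes were 36.3% to 38.3% of those counted, with 38.0% to 40.1% on no feature and 21.5% to 24.2% not unique, and these 5 summary lines were left out. Of the gene IDs 49326 matched a symbol.

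Here counts were normalised by TMM and fitted with 4 group means in edgeR 4.0.16 (R 4.3.3) after filterByExpr. CPM use TMM library sizes, and CPM per kilobase divide by the exon union of GENCODE M21. SE is the log2 fold change over the root of F. The two-sided exact permutation test used log2 CPM. DESeq2 1.42.0, limma 3.58.1 (voom), RLE, other filters, a threshold of 0.05, line as block, summed lines, and single cultures or lines left out were alternatives. The block fit held the IL-22 effect equal across the lines of a genotype. The fit on summed lines did not pair treated and untreated sums of a line. On simulated counts with the fl/fl IL-22 design (12379 genes), 79.6% of genes changed by 1 and 96.9% of those changed by 2 on the log2 scale were called. So were 4 unchanged genes. The simulated cultures were independent and held no difference between organoid lines, so recovery with such differences was not tested. Promoters and starts are from RefSeq (GRCm38.p6).

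Treated and untreated cultures pair through the organoid number in the labels: deviations correlated at 0.263 to 0.438 within fl/fl lines and 0.056 to 0.321 within ΔIEC lines, and at -0.435 to -0.0779 between lines. The members and lists were chosen with earlier results of these data known. By the rule for named genes, all 38 members are named, with per-culture values for the 3 of each role with the smallest adjusted p in any comparison and for Fabp1, Fabp6, Apoa4, Npc1l1, Slc10a2 and Cd36, and at most 12 wider-list genes are named in order of p where the adjusted p is under 0.01 and the log2 fold change at least 1.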

Additional observations from a re-analysis of the deposited data

Results flagged for a closer look

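In 3 of 144 groups of 4 cultures, 1 culture lay far from the other three by Dixon's ratio on log2 CPM, a distance that chance alone gives in about 1 of 20 groups. Apoa1 in the fourth untreated ΔIEC culture was low at 112.557 CPM (271 counts), where the others held 149.6 to 157 CPM. Nr1h4 in the third untreated fl/fl culture was low at 19.9461 CPM (44 counts), where the others held 25.3 to 25.7 CPM. Plin3 in the first IL-22-treated ΔIEC culture was low at 113.407 CPM (280 counts), where the others held 144 to 150.0 CPM.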

How the results depend on the processing

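No member call reversed: over 45 calls and 1195 values under alternatives, 1074 kept their direction and side of the threshold and 121 kept the direction only, and 13 calls passed in every setting that tested the gene, Apoc3 and Mgll not being tested with at least 10 counts in every culture. With the organoid line as a replicate block, 7 members rose and 14 fell with IL-22 in fl/fl and 5 rose and 15 fell in ΔIEC organoids, with no call lost and 0 interactions. With the cultures of a line summed and the sums not paired by line, 1 rose and 4 fell in fl/fl and 4 rose and 5 fell in ΔIEC organoids. In that fit 0 differed between genotypes in either direction or treatment. Without a filter on low counts, 2 members passed the interaction test (Fabp1 and Apoa1), where 31 of all 25406 genes passed upward and 49 downward. In that setting 4 members were higher in untreated and 5 in IL-22-treated ΔIEC organoids, where 748 and 1464 of all genes were. At an adjusted p under 0.05, 2 were higher and 10 lower untreated and 5 higher and 11 lower with IL-22. All genes were not counted at that threshold, so these counts cannot be set beside a share of all genes. With limma-voom 1 was higher with IL-22, where 885 of all 12559 genes were.

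Leaving out a culture or a line gave these lowest and highest counts: 1 to 5 higher and 8 to 12 lower with IL-22 in fl/fl, 3 to 4 higher and 7 to 11 lower in ΔIEC, 0 to 2 higher and 3 to 7 lower in untreated ΔIEC against fl/fl, and 0 to 5 higher and 2 to 9 lower with IL-22. Over all 12676 to 12937 tested genes, the IL-22 comparisons gave 590 to 1445 higher and 493 to 1382 lower in fl/fl, and 495 to 1366 and 418 to 1125 in ΔIEC. The genotype comparisons gave 110 to 691 higher and 319 to 948 lower untreated, and 400 to 1359 and 550 to 1313 with IL-22. Without the second fl/fl line 1 rose with IL-22 in fl/fl, 2 were higher in untreated ΔIEC organoids, and 1 was higher and 2 lower in treated ones. Over all tested genes (12559 in the main fit, 12785 here) these calls went from 1329 to 590, 475 to 691, 1245 to 895 and 1236 to 961. Without the first fl/fl line 0 members were higher in ΔIEC organoids in either treatment, where 110 of all 12852 genes were higher untreated and 760 with IL-22. Without the second ΔIEC line 2 members were higher and 3 lower untreated and 5 higher with IL-22, and without the first 0 were higher with IL-22. Over all genes 263 were higher and 425 lower untreated and 955 higher with IL-22 without the second, and 400 higher with IL-22 without the first. Without the first untreated ΔIEC culture 0 members were higher untreated, where 223 of all 12704 genes were. With IL-22, 1 member was higher without the second treated fl/fl culture or without the first or second treated ΔIEC culture, and 5 were higher without the third. Over all genes 949, 1073, 881 and 1359 were higher, in that order. A single line then stood for its genotype and was taken to vary like the others. Few counts limit Cd36, Fabp6, Apoc2, Mgll and Slc51b. The cause of these shifts was not tested.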
